A study of Apis mellifera with 27 samples.

Results

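Hsp90, its partner Cdc37 and the Hsc70 genes form the chaperone set described here. A gene belonged to the set if its identifier in the count table was Hsp90 or Cdc37 or began with Hsc70 or Hsp. The rule found 5 of the 12319 genes, namely Hsp90, Cdc37, Hsc70-3, Hsc70-4 and Hsc70-5, and all 5 passed the filter on low counts that left 9816 genes for testing. No measured value entered the rule itself, but the members were chosen with earlier results of these data known.

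Hsp90 is an abundant chaperone of the cytosol that holds client proteins, among them many kinases and the steroid hormone receptors, in a state in which they can be activated. Cdc37 is a co-chaperone that brings kinases to Hsp90. Proteins of the Hsp70 family bind unfolded stretches of other proteins in an ATP-driven cycle and pass some of their clients on to Hsp90, and the cognate members, named Hsc70, are made without heat stress. The Hsc70 numbers follow the naming of Drosophila, in which Hsc70-3 is the chaperone of the endoplasmic reticulum also called BiP, Hsc70-4 is the main cytosolic form and Hsc70-5 is the mitochondrial form.

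Polyadenylated RNA was sequenced from mushroom body tissue of honey bee (Apis mellifera) foragers, cut out by laser capture so as to enrich for small Kenyon cells, the most numerous intrinsic neurons of the insect brain's centres for learning and memory. The bees had been trained to a time of day, and the labels give no training hour, light regime, temperature, strain or agent. Foragers were taken at 7 time points, which were 06:00, 10:00, 14:00, 18:00 and 22:00 on day 11 and 02:00 and 06:00 on day 12. They came from 2 colonies whose behavioural experiments were run separately, so colony stands here for both the bees and the run. Each colony and time point had 2 libraries, except that 06:00 of day 11 had 1 library in colony 2, and a further library of that group was not analysed here. This gave 14 libraries in colony 1 and 13 in colony 2. The labels do not tie libraries to separate bees, so p-values measure the spread between these libraries, which may be technical. In a tissue sample of this kind, fewer cells of a type and less RNA per cell cannot be told apart.

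Total counts ranged from 8732841 to 12277539 in colony 1 and from 5589770 to 10846551 in colony 2. On the first principal component, 3 libraries of colony 2 stood apart, with scores from 66.0 to 94.7 against at most 45.05 in the others. They were the single colony 2 library of 06:00 on day 11 and both colony 2 libraries of 10:00, and the tests they enter are also given without them where a fit could be made. The small Kenyon cell markers measured (E74, Tk and Ecr) summed to 394 to 1256 CPM (counts scaled by library size) in these 3 and to 902 to 2120 CPM in the other 24. The large Kenyon cell markers Mblk-1, Camkii and Pkc were present in every library. They summed to 2448 to 9636 CPM in these 3 (median 8404) and to 3866 to 11043 CPM in the other 24 (median 6398). The value of 2448 CPM was that of 06:00 on day 11. The 3 libraries were higher in the glial transporter Eaat-2 (126 to 211 CPM against 28.0 to 165), in 7 troponin genes of muscle (196 to 705 CPM against 16.6 to 251) and in 4 opsins of photoreceptors (285 to 375 CPM against 42.3 to 364). The 9 royal jelly protein genes summed to at most 76.1 CPM in any library and the 6 fat body and hemolymph genes to at most 30.0 CPM, with Mrjp9 at 0 counts in 25 of 27 libraries, Hex70c in 26 and vitellogenin (Vg) in 14.

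By mean, Hsp90 was at its highest at 10:00 and at its lowest at 02:00 in both colonies. The library size behind each CPM value is TMM-adjusted, and levels are given in this unit and compared only between libraries of 1 gene, since no gene lengths enter them. At 10:00 Hsp90 stood at 3324 and 3521 CPM in the colony 1 libraries and at 4054 and 3852 CPM in the colony 2 libraries. At 02:00 it stood at 1668 and 1779 CPM in colony 1 and at 1429 and 1921 CPM in colony 2. The 2 groups did not overlap, with 10:00 higher, as for 4.97% of all genes at the same 2 hours. These hours were picked as those with the highest and lowest Hsp90 means. A share with hours picked in this way for each gene was not computed. The means of 3688 ± 327 CPM (SD, n = 4) and 1699 ± 208 CPM (SD, n = 4) differed 2.17-fold. The fold was 1.99 in colony 1, which holds none of the 3 libraries standing apart, and 2.36 in colony 2.

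At 06:00 of day 11 Hsp90 stood at 1401 and 2243 CPM in colony 1 and at 2818 CPM in the 1 colony 2 library. At 14:00 the values were 1976 and 1921 CPM in colony 1 and 2719 and 2395 CPM in colony 2. At 18:00 they were 2455 and 2273 CPM in colony 1 and 2899 and 2458 CPM in colony 2. All 4 libraries of 14:00 thus lay within the range of 06:00 on day 11, from 1401 to 2818 CPM, and below every library of 10:00. At 22:00 Hsp90 measured 2495 and 1675 CPM in colony 1 and 1796 and 2585 CPM in colony 2. At 06:00 of day 12 it measured 1854 and 2036 CPM in colony 1 and 3343 and 1888 CPM in colony 2. That single colony 2 library of day 12, at 3343 CPM, was the only one outside 10:00 to reach the lowest 10:00 library. Within each colony, both 10:00 libraries lay above every other library. This pattern, chosen after the values were seen, was shared by 50 of the 9816 genes tested (0.509%).

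**Figure D1:**
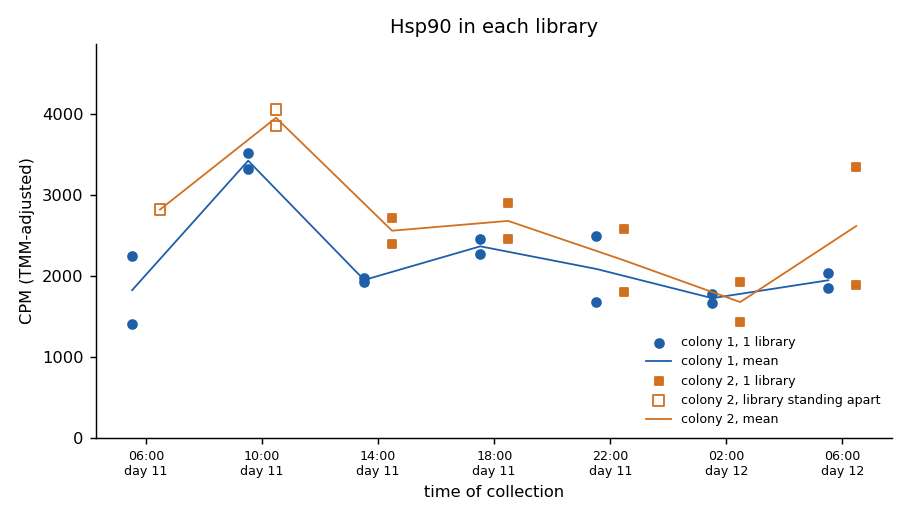
Hsp90 in CPM (TMM-adjusted, linear axis from 0) in each of the 27 libraries by time of collection. Circles are colony 1 and squares colony 2, open squares are the 3 libraries standing apart, and lines join the means of each colony. The 4 libraries of 10:00 sit between 3324 and 4054 CPM, and 1 colony 2 library of 06:00 on day 12 reaches 3343 CPM.

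Ordered by mean, Hsp90 ran from 10:00 (3688 CPM) through 18:00 (2521 ± 266, SD, n = 4), 06:00 of day 12 (2280 ± 713, SD, n = 4), 14:00 (2253 ± 376, SD, n = 4), 06:00 of day 11 (2154 ± 713, SD, n = 3) and 22:00 (2138 ± 468, SD, n = 4) to 02:00 (1699 CPM). Only the step from 10:00 to 18:00, of 1167 CPM, exceeded the larger SD of the 2 neighbours. The other 5 steps, of 16.6 to 439 CPM, did not. Replicate libraries of Hsp90 differed by a median of 0.18 on the log2 scale over 13 pairs, against 0.15 over genes averaging at least 100 CPM. Its widest pair, at 0.82, was colony 2 at 06:00 of day 12.

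Hsp90 changed over the 7 time points in a test with colony as a term, with a log2 range of 1.11 between the highest and lowest fitted time point (adjusted p = 0.0205, edgeR quasi-likelihood test with Benjamini-Hochberg adjustment over 9816 genes). It was the 1 chaperone of the 5 called in this test, which called 2.29% of all genes. With each colony fitted alone, Hsp90 was called in both. Its range was 1.00 in colony 1 (adjusted p = 0.0472, with 3.82% of genes called there) and 1.23 in colony 2 (adjusted p = 0.0253, with 21.2% of genes called there). A difference between the colonies' courses was not called (adjusted p = 0.711), and the 7 time point means of the 2 colonies correlated with r = 0.796. Without the 3 libraries standing apart the range was 1.10 (adjusted p = 0.0464), and 280 of 9992 genes were called. The call rested on 10:00. It was lost when any 1 of the 4 libraries of 10:00 was left out (adjusted p from 0.0551 to 0.0721). The log2 range stayed between 1.08 and 1.13 in these fits. The call held when any 1 of the other 23 was left out. Without all 4 the range over the remaining 6 time points fell to 0.55 (adjusted p = 0.582), an alternative chosen after the data were seen.

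Set against 22:00, 12 h away on the clock, Hsp90 was higher at 10:00, with all 4 libraries above all 4 of 22:00, as for 2.96% of all genes. The log2 difference was 0.78 (SE 0.191, 95% interval 0.39 to 1.17, adjusted p = 0.0267). It was 0.73 in colony 1 alone (adjusted p = 0.0512) and 0.86 in colony 2 alone (adjusted p = 0.0608), called in neither, where 2.38% and 1.02% of all genes were called higher. Without the 3 libraries standing apart the difference stayed at 0.78 (adjusted p = 0.0875), and the call was also lost without either colony 2 library of 10:00 (adjusted p = 0.0637 and 0.0616), the second colony 1 library of 22:00 (0.105) or the first colony 2 library of 22:00 (0.123). The glial, muscle, photoreceptor, neuron and large Kenyon cell markers also had higher medians at 10:00 than at 22:00 and 02:00. Their ranges overlapped those of 22:00. Eaat-2 measured 72.7 to 165 CPM at 10:00, 44.3 to 79.1 CPM at 22:00 and 28.0 to 55.5 CPM at 02:00. The 7 troponin genes summed to 87.6 to 705 CPM at 10:00, 36.1 to 135 CPM at 22:00 and 19.2 to 169 CPM at 02:00. The 4 opsins summed to 43.3 to 375 CPM at 10:00 (median 228), 109 to 154 CPM at 22:00 (median 118) and 42.3 to 176 CPM at 02:00 (median 79.3). The large Kenyon cell markers summed to 5395 to 9636 CPM at 10:00 (median 8187) and 5663 to 8398 CPM at 22:00 (median 6197), and the small Kenyon cell markers to 1236 to 1697 CPM (median 1258) and 1446 to 1560 CPM (median 1520). The neuron markers Syt1, brp and Syx1A summed to 1369 to 2276 CPM at 10:00 (median 1822). They summed to 1376 to 1712 CPM at 22:00 (median 1484) and 1375 to 1555 CPM at 02:00 (median 1501). The part of all these markers in the Hsp90 difference was not tested.

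Hsp90 was not called by the test of a 24 h cosine. Its peak-to-trough value was 0.72 on the log2 scale with a peak at 12.1 h on the clock (adjusted p = 0.0536), and it crossed the threshold in 9 of 38 alternatives. The value was 0.57 without the 3 libraries standing apart (adjusted p = 0.127). The measured maximum lay at 10:00, with lower and similar levels at 14:00, 18:00 and 22:00. The remaining comparisons did not call Hsp90. All 4 libraries of 14:00 lay above all 4 of 02:00, as for 5.25% of all genes, the nearest pair being 1921.1 and 1920.97 CPM. The log2 difference was 0.39 (SE 0.190, adjusted p = 0.387). The difference was 0.18 (SE 0.168) between 18:00 and the 2 collections at 06:00 (adjusted p = 0.657), and 0.05 (SE 0.206) between 06:00 of day 12 and of day 11 (adjusted p = 0.941). Hsp90 averaged 2187 ± 609 CPM (SD, n = 14) in colony 1 and 2628 ± 787 CPM (SD, n = 13) in colony 2, a log2 difference of 0.25 (SE 0.104, adjusted p = 0.0764). This difference was 0.20 without the 3 libraries standing apart (adjusted p = 0.248).

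Cdc37, the kinase co-chaperone, also had its highest mean at 10:00 and its lowest at 02:00 in both colonies, over a narrower range. It stood at 330 and 266 CPM in the colony 1 libraries of 10:00 and at 408 and 412 CPM in those of colony 2. At 22:00 it stood at 262 and 223 CPM in colony 1 and at 248 and 274 CPM in colony 2. The 2 colony 2 libraries of 10:00 lay far above 22:00, while one of colony 1, at 266 CPM, fell below the highest library of 22:00. At 02:00 Cdc37 measured 261 and 220 CPM in colony 1 and 275 and 246 CPM in colony 2. At 06:00 of day 11 it measured 233 and 295 CPM in colony 1 and 384 CPM in colony 2, and at 06:00 of day 12 the values were 252, 267, 308 and 322 CPM in the same colony order. At 14:00 and 18:00 the 8 libraries lay between 249 and 338 CPM. Means ran from 354 ± 70 CPM (SD, n = 4) at 10:00 to 250 ± 24 CPM (SD, n = 4) at 02:00, a 1.41-fold difference that was 1.24-fold in colony 1 and 1.57-fold in colony 2. The mean of 02:00 was 1.45 CPM below that of 22:00, and the step of 49.9 CPM from 10:00 to 06:00 of day 11 was smaller than the SD of 76.1 there. In the order of the 7 means, the step from 06:00 of day 12 to 22:00, of 35.6 CPM, was the only one above the larger SD of the 2 neighbours (33.0 CPM).

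Cdc37 was higher at 10:00 than at 22:00 by 0.47 on the log2 scale (SE 0.122, 95% interval 0.22 to 0.72, adjusted p = 0.0348). With Hsp90 this made 2 of the 5 chaperones called higher at 10:00, where 0.937% of all genes were called higher and 1.22% lower. The median over the 5 was 0.27, against -0.02 over all genes. The Cdc37 difference was 0.31 in colony 1 alone (adjusted p = 0.218) and 0.66 in colony 2 alone (adjusted p = 0.0425, with 1.02% of genes called higher there). It fell to 0.36 without the 3 libraries standing apart (adjusted p = 0.265). The call was also lost without any 1 of 6 libraries, which were the first colony 1 library and both colony 2 libraries of 10:00, the second colony 1 library and both colony 2 libraries of 22:00 (adjusted p from 0.0655 to 0.142). The glial, muscle, photoreceptor, neuron and Kenyon cell marker values given for Hsp90 at these hours apply here too, and their part was not tested.

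Cdc37 was called by the test of a 24 h cosine, with a peak-to-trough value of 0.43 on the log2 scale and a peak at 11.1 h (adjusted p = 0.0272). The fit fixed the period at 24 h, and 06:00 was the only hour collected on both days. Cdc37 and Hsc70-3 were the 2 chaperones of the 5 called by the cosine test, which called 4.31% of all genes. It was 0.33 without the 3 libraries standing apart (adjusted p = 0.0423), where 874 of 9992 genes were called. The call held in 28 of 38 alternatives and in neither colony alone, where the values were 0.28 in colony 1 (adjusted p = 0.232, with 5.4% of genes called) and 0.61 in colony 2 (adjusted p = 0.246, with 0.00981% called). Leaving out any 1 of 6 libraries ended it, with adjusted p from 0.0537 to 0.0569. These were the first colony 1 library and both colony 2 libraries of 10:00, the first colony 2 library of 22:00 and both colony 2 libraries of 02:00. Over the 7 time points as separate levels, Cdc37 had a range of 0.48 (adjusted p = 0.124). This range was 0.36 without the 3 libraries standing apart (adjusted p = 0.360).

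Cdc37 was the 1 chaperone called between colonies. It averaged 261 ± 28 CPM (SD, n = 14) in colony 1 and 322 ± 55 CPM (SD, n = 13) in colony 2, higher in colony 2 by 0.29 on the log2 scale (SE 0.0665, adjusted p = 0.00258), in a test that called 10.6% of all genes higher in colony 2 and 14.3% lower. The call held in 34 of 35 alternatives, and without the 3 libraries standing apart the difference was 0.22 (adjusted p = 0.0256), with 1227 of 9992 genes called. Colony, bees and behavioural run cannot be told apart in this comparison. The 7 time point means of the 2 colonies correlated with r = 0.916, which takes no account of the size of the swing, and a difference between the colonies' courses was not called (adjusted p = 0.525).

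**Figure D2:**
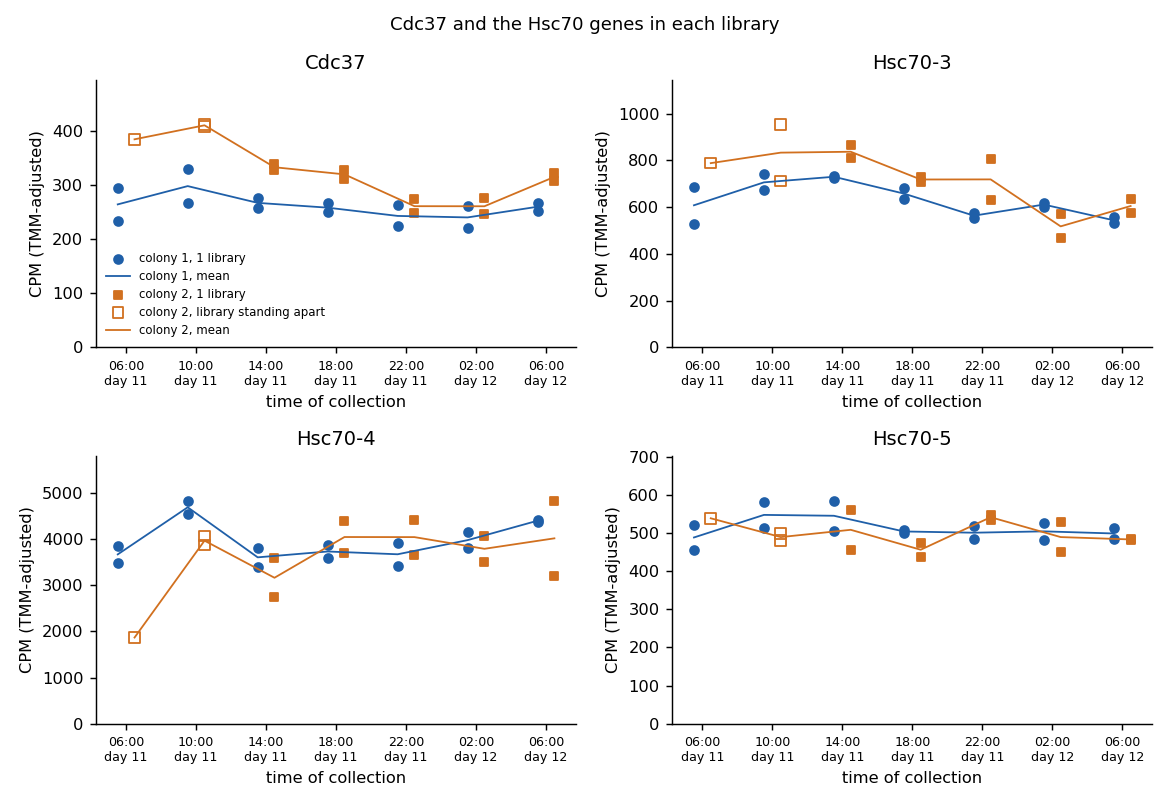
Cdc37, Hsc70-3, Hsc70-4 and Hsc70-5 in CPM (TMM-adjusted, linear axes from 0, 1 panel a gene) in each of the 27 libraries by time of collection, with colonies, open squares and lines as in the plot of Hsp90. Cdc37 lies between 220 and 412 CPM with colony 2 mostly higher. The mean of Hsc70-3 over both colonies is highest at 14:00 and lowest at 02:00, and its colony 1 mean is lowest at 06:00 of day 12. The lowest Hsc70-4 value, 1867 CPM, is the single colony 2 library of 06:00 on day 11.

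Hsc70-3, the chaperone of the endoplasmic reticulum, was high at 10:00 and 14:00 and low at 02:00 and 06:00 of day 12 by its mean over both colonies. The lowest mean was at 02:00 in colony 2 (518 CPM) but at 06:00 of day 12 in colony 1 (544 CPM). In colony 1 the mean of 02:00 was 611 CPM, above those of 22:00 (564 CPM) and 06:00 of day 11 (608 CPM). The courses of the 2 colonies correlated with r = 0.606 over the 7 time points. At 14:00 it stood at 725 and 736 CPM in colony 1 and at 866 and 809 CPM in colony 2. At 02:00 it stood at 602 and 620 CPM in colony 1 and at 466 and 570 CPM in colony 2. All 4 libraries of 14:00 lay above all 4 of 02:00. The means were 784 ± 66 CPM (SD, n = 4) and 564 ± 69 CPM (SD, n = 4), a 1.39-fold difference, and the log2 difference of 0.46 (SE 0.141, 95% interval 0.17 to 0.75) was not called (adjusted p = 0.162). It was 0.26 in colony 1 alone (adjusted p = 0.386) and 0.68 in colony 2 alone (adjusted p = 0.0902). The contrast of 14:00 with 02:00 called 0 of the 5 chaperones, with 2 at an unadjusted p under 0.05, and 0.0917% of all genes. Groups that did not overlap with 14:00 higher occurred for Hsp90 and Hsc70-3 and for 5.25% of all genes. Without the 3 libraries standing apart Hsc70-3 was called at 0.45 (adjusted p = 0.0258), in a fit that called 576 of 9992 genes. None of these 3 was collected at either hour, and all libraries of a fit share 1 estimate of spread per gene.

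At 10:00 Hsc70-3 measured 672 and 740 CPM in colony 1 and 955 and 712 CPM in colony 2. At 22:00 it measured 553 and 574 CPM in colony 1 and 631 and 807 CPM in colony 2. The groups overlapped, and the log2 difference of 0.27 (SE 0.141) was not called (adjusted p = 0.339). At the 2 collections at 06:00 the means were 668 ± 131 CPM (SD, n = 3) on day 11 and 574 ± 45 CPM (SD, n = 4) on day 12, a log2 difference of -0.24 (SE 0.152, adjusted p = 0.524). No step between neighbours in the order of the 7 means exceeded the larger SD of the 2. The 24 h cosine was called, with a peak-to-trough value of 0.46 and a peak at 13.6 h (adjusted p = 0.0395). In colony 1 alone the value was 0.38 with a peak at 13.5 h (adjusted p = 0.0620), and in colony 2 alone it was 0.55 with a peak at 13.5 h (adjusted p = 0.343). It was 0.44 without the 3 libraries standing apart (adjusted p = 0.00954). The cosine call held in 17 of 38 alternatives. It was lost, with adjusted p from 0.0508 to 0.108, when any 1 of 16 of the 27 libraries was left out. The highest of these values came without the first colony 2 library of 02:00, the lowest Hsc70-3 value measured. The range over the 7 time points was 0.46 (adjusted p = 0.168).

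Hsc70-4, the cytosolic Hsc70, took between 0.182% and 0.489% of the counts of a library and passed no test of a daily course. At 10:00 it stood at 4834 and 4550 CPM in colony 1 and at 4064 and 3871 CPM in colony 2. At 02:00 it stood at 4158 and 3801 CPM in colony 1 and at 3514 and 4068 CPM in colony 2. The 2 groups overlapped, but these hours were picked as those of the highest and lowest Hsp90 means, so the genes are not compared on equal terms. Its range over the 7 time points was 0.53 (adjusted p = 0.440), and the cosine had a peak-to-trough value of 0.04 (adjusted p = 0.983). The difference between 10:00 and 22:00 was 0.16 (SE 0.178, 95% interval -0.21 to 0.52, adjusted p = 0.688). It was 0.37 in colony 1 alone (adjusted p = 0.0883) and -0.02 in colony 2 alone (adjusted p = 0.994).

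The lowest Hsc70-4 value by far came from the single colony 2 library of 06:00 on day 11, at 1867 CPM, against 3481 and 3859 CPM in the colony 1 libraries of that hour and 2742 CPM in the next lowest library of all. At 06:00 of day 12 the values were 4424 and 4378 CPM in colony 1 and 4835 and 3201 CPM in colony 2. Day 12 exceeded day 11 by 0.50 on the log2 scale (SE 0.196, adjusted p = 0.374) and, in colony 2 alone, by 1.12 (SE 0.288, adjusted p = 0.00821). That call set 2 libraries against the 1 library standing apart, and 19.2% of all genes were called with it. Without that library the fitted difference was 0.23, with only colony 1 left at 06:00 of day 11. The same library was the lowest in the small Kenyon cell markers, at 394 CPM, and in the large Kenyon cell markers, at 2448 CPM, and the part of tissue make-up in its low Hsc70-4 value was not tested. The difference between the colonies' courses was not called (adjusted p = 0.0776), in a test that called 0 of the 5 chaperones and 22.5% of all genes, and Hsc70-4 was called in 7 of its alternatives.

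Hsc70-5, the mitochondrial form, held within 438 to 586 CPM in all 27 libraries, a 1.34-fold span, against 2.89-fold for Hsp90, 2.59-fold for Hsc70-4, 2.05-fold for Hsc70-3 and 1.88-fold for Cdc37. Its time point means lay between 481 ± 32 CPM (SD, n = 4) at 18:00 and 528 ± 58 CPM (SD, n = 4) at 14:00. The range over the 7 time points was 0.13 (adjusted p = 0.954) and the peak-to-trough value of the cosine was 0.04 (adjusted p = 0.943). The 95% interval of its difference between 10:00 and 22:00 ran from -0.25 to 0.23, which lies wholly below the Hsp90 interval of 0.39 to 1.17. The highest colony 1 mean was at 10:00 and the highest colony 2 mean at 22:00, and the 2 colony courses correlated with r = -0.181 over the 7 time points.

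**Figure D3:**
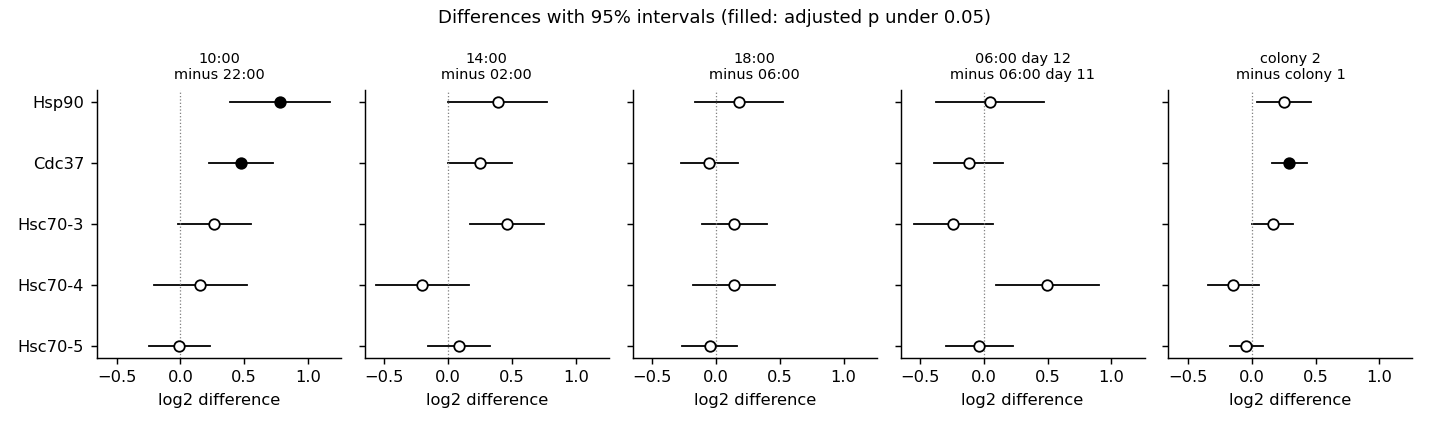
Log2 differences of the 5 chaperones in 5 comparisons (1 panel each, horizontal axis in log2 units with a dotted line at 0), with 95% intervals from the edgeR fit of all 27 libraries. Filled points have an adjusted p under 0.05 and are Hsp90 (0.78) and Cdc37 (0.47) at 10:00 against 22:00 and Cdc37 (0.29) between colonies.

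No chaperone of the 5 was called between 18:00 and the 2 collections at 06:00, or between the 2 collections at 06:00, and 0% of all genes were called in either comparison. At an unadjusted p under 0.05, 0 chaperones and 1285 genes passed in the former, and 1 chaperone (Hsc70-4) and 1138 genes in the latter. DESeq2 called 77 genes and 1 gene, none of them a chaperone of the set. Without the first colony 1 library of 06:00 on day 11, edgeR called 366 genes between the 2 collections at 06:00 and 15 at 18:00 against 06:00. In colony 2 alone it called 1962 and 1512 of 10198 genes in these comparisons. The cosine by colony test called 0 of the 5, with 0 at an unadjusted p under 0.05, and 0.0204% of all genes.

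Because the 5 genes were read in the same libraries, their balance can also be given as a ratio of counts, which shows unequal change but not which gene moved. The count of Hsp90 was 0.864 ± 0.157 times that of Hsc70-4 at 10:00 (SD, n = 4, range 0.688 to 0.998) and 0.437 ± 0.038 times at 02:00 (SD, n = 4, range 0.401 to 0.472). These ranges did not overlap, at hours picked as those of the highest and lowest means of Hsp90, the numerator. No share over all genes was computed for such ratios. Against Hsc70-3 the ratio was 4.84 ± 0.48 at 10:00 (SD, n = 4, range 4.25 to 5.41) and 3.02 ± 0.27 at 02:00 (SD, n = 4, range 2.77 to 3.37). Against Hsc70-5 the ratio was 7.16 ± 1.06 at 10:00 (SD, n = 4, range 6.04 to 8.13) and 3.41 ± 0.19 at 02:00 (SD, n = 4, range 3.16 to 3.63). Against Cdc37 it was 10.6 ± 1.7 at 10:00 (SD, n = 4, range 9.35 to 13.2) and 6.88 ± 1.35 at 02:00 (SD, n = 4, range 5.19 to 8.11). Other hours were not all lower. At 06:00 of day 11 the ratio to Hsc70-4 averaged 0.831 ± 0.594 (SD, n = 3) and reached 1.51, above every library of 10:00. The maxima of several other hours lay inside the ranges of 10:00. For the ratio to Hsc70-4 these were 0.992 at 14:00 and 0.691 at 06:00 of day 12. For Hsc70-3 they were 4.51 at 22:00 and 5.26 at 06:00 of day 12. For Cdc37 they were 9.85 at 18:00, 9.51 at 22:00 and 10.9 at 06:00 of day 12. For Hsc70-5 they were 6.62 at 18:00 and 6.89 at 06:00 of day 12. The 2 hours compared were chosen after the values were seen, and the ratios were not tested.

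Across the libraries of each colony, Cdc37 correlated with Hsp90. The correlation of log2 CPM was r = 0.658 in colony 1 (n = 14, permutation test, adjusted p = 0.0291 over 8 relations) and r = 0.762 in colony 2 (n = 13, permutation test, adjusted p = 0.0144). Spearman's rho was 0.604 and 0.676 (both adjusted p = 0.0682 by permutation). Without the 2 libraries farthest from the median of Hsp90, r was 0.567 and 0.710. For Hsc70-3, r was 0.522 in colony 1 (adjusted p = 0.0881 by permutation; rho 0.477, adjusted p = 0.139) and 0.745 in colony 2 (adjusted p = 0.0144; rho 0.632, adjusted p = 0.0682). Without the 2 farthest libraries these fell to 0.347 and 0.467. The libraries left out were both of 10:00 in colony 1, and the first of 10:00 and the first of 02:00 in colony 2. Without the 3 libraries standing apart, all of colony 2, r there was 0.545 for Cdc37 (n = 10, permutation test, adjusted p = 0.152) and 0.723 for Hsc70-3 (n = 10, permutation test, adjusted p = 0.0595), and neither relation passed the threshold any longer. For Hsc70-4, r was 0.603 in colony 1 (adjusted p = 0.0447 by permutation; rho 0.512, adjusted p = 0.127) but 0.183 without the 2 farthest, and it was 0.132 in colony 2 (adjusted p = 0.770; rho 0.385, adjusted p = 0.259). For Hsc70-5 it was 0.439 in colony 1 (adjusted p = 0.152; rho 0.222, adjusted p = 0.510) and 0.0067 in colony 2 (adjusted p = 0.983; rho 0.033, adjusted p = 0.918). Libraries of 1 time point share their hour, so they are not independent draws of the relation.

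**Figure D4:**
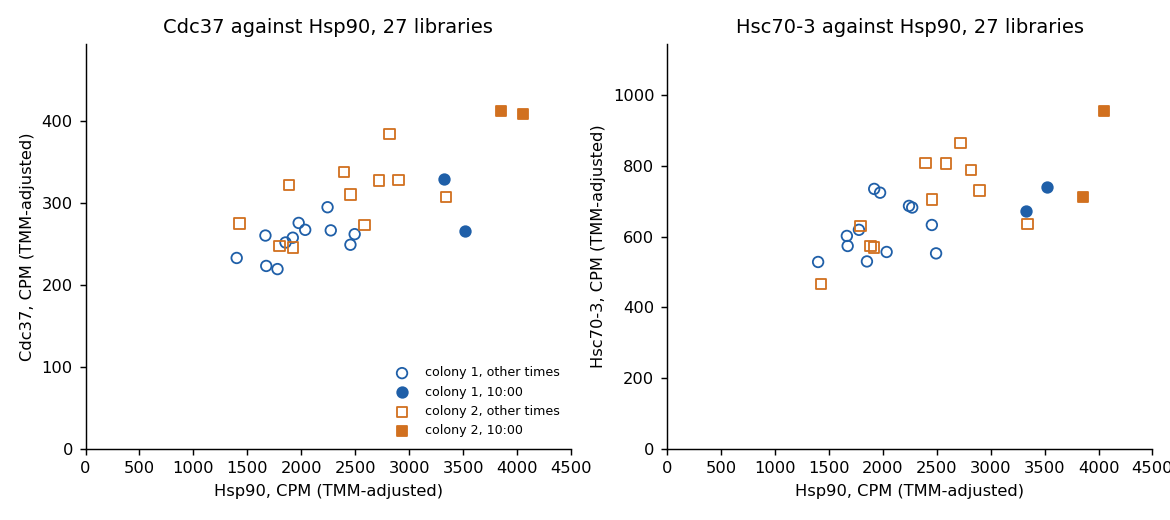
Cdc37 (left) and Hsc70-3 (right) against Hsp90 in 27 libraries, all in CPM (TMM-adjusted, linear axes from 0). Circles are colony 1 and squares colony 2, and filled points are libraries of 10:00, which sit at the right edge between 3324 and 4054 CPM of Hsp90.

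Among all 7301 genes averaging at least 10 CPM, those most like Hsp90 over the 27 libraries, after each colony's mean was subtracted from log2 CPM, were LOC102656934 (r = 0.882), LOC726184 (r = 0.788) and LOC726456 (r = 0.779), none of which carries a gene name in the sources used here. LOC102656934 measured 372 ± 24 CPM at 10:00 (SD, n = 4) and 229 ± 23 CPM at 02:00 (SD, n = 4), and it was also first without the 3 libraries standing apart (r = 0.854) and by Spearman's rho (0.795). Of genes with a symbol the most alike were Cdc37 (r = 0.717, rank 19) and AChE-2, an acetylcholinesterase gene (r = 0.659, rank 45), with Hsc70-3 next (r = 0.657, rank 46). Hsc70-4 (r = 0.258, rank 1512) and Hsc70-5 (r = 0.194, rank 2011) ranked lower. Without the 3 libraries Hsc70-4 ranked 522 (r = 0.430) and Hsc70-5 ranked 1649 (r = 0.230). Cdc37 ranked 60 (r = 0.627) and AChE-2 ranked 197 (r = 0.535) in the same libraries. Of the 10 genes most like Hsp90, 4 stayed among the 10 without the 3 libraries, and 4 did by Spearman's rho.

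The other chaperones had other nearest genes. Cdc37 was most like LOC727014 (r = 0.799), LOC113218632 (r = 0.793) and LOC726456 (r = 0.783), the last of which was also among the 3 most like Hsp90, and among genes with a symbol Amih (r = 0.752) and Hsp90 (r = 0.717). Hsc70-3 was most like LOC100577335 (r = 0.879), LOC412150 (r = 0.866) and LOC413011 (r = 0.851), with Cat, the gene of catalase (r = 0.768), and Fabp, a fatty acid binding protein gene (r = 0.754). Hsc70-4 was most like LOC100578621 (r = 0.901), LOC413197 (r = 0.899) and LOC725548 (r = 0.889), with Dop1, a dopamine receptor gene (r = 0.855), and 5-HT1, a serotonin receptor gene (r = 0.847). Hsc70-5 was most like LOC409851 (r = 0.743), LOC552141 (r = 0.738) and LOC551087 (r = 0.731), with Ppib (r = 0.647) and Trxr-1 (r = 0.639). The order of these genes depended on the 3 libraries standing apart. Without them LOC727014 ranked 9 for Cdc37, LOC113218632 ranked 26, LOC726456 ranked 5 and Amih fell from rank 7 to 66 (r = 0.603). For Hsc70-3, LOC412150, LOC100577335 and LOC413011 ranked 1, 2 and 4, Cat ranked 40 and Fabp ranked 41. For Hsc70-4, LOC100578621, LOC725548 and LOC413197 ranked 3, 4 and 5, while Dop1 fell from rank 12 to 62 (r = 0.672) and 5-HT1 from rank 20 to 78 (r = 0.658). For Hsc70-5, LOC409851, LOC552141 and LOC551087 ranked 6, 19 and 23, Ppib moved from rank 38 to 7 (r = 0.757) and Trxr-1 from 46 to 73. These correlations describe 27 libraries that share depth and tissue make-up.

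A planned list of further chaperones matched 0 genes by symbol or synonym, and 8 genes of folding, the endoplasmic reticulum and hormone reception were taken by symbol instead. Of these, 7 were tested, namely PIH1D1 (a subunit of an Hsp90 co-chaperone complex), Ppib (a proline isomerase of the endoplasmic reticulum), Slc35b1, STT3B (the catalytic subunit of an oligosaccharyltransferase), Ube2g1, and Ecr and Usp, which together form the ecdysone receptor, a steroid receptor. The eighth, SsRbeta, was too low. None of the 7 was called over the time points, by the cosine or at 10:00 against 22:00, beside 2.29%, 4.31% and 2.16% of all genes. Ppib measured 179 ± 35 CPM at 10:00 (SD, n = 4), a log2 difference of 0.13 (SE 0.248) to 22:00 (adjusted p = 0.834). PIH1D1 differed by -0.43 (SE 0.331, adjusted p = 0.525) and Ecr by 0.23 (SE 0.233, adjusted p = 0.651) in the same comparison. STT3B was lower in colony 2 by 0.31 on the log2 scale (log2 difference -0.31, SE 0.0866, adjusted p = 0.0114). The courses of Ppib, STT3B and Usp differed between the colonies (adjusted p = 0.00273, 0.00336 and 0.0130), a test that called 22.5% of all genes. The single colony 2 library of 06:00 on day 11 held the highest Ppib value, at 427 CPM against at most 238 CPM elsewhere, and the lowest Usp value, at 127 CPM against at least 203 CPM. STT3B averaged 75.0 CPM in the 2 colony 2 libraries of 10:00 and 150 CPM in those of colony 1. These libraries are among the 3 standing apart, and the test was not run without them.

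**Figure D5:**
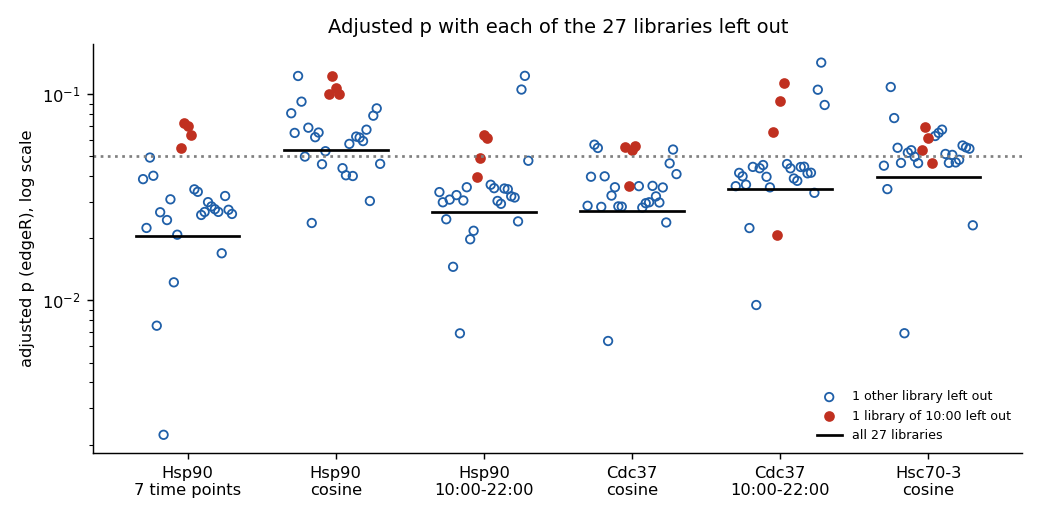
Adjusted p (edgeR, logarithmic axis, dotted line at 0.05) of 6 member results with each of the 27 libraries left out in turn. Filled points leave out 1 library of 10:00, open points 1 other library, and bars are all 27 libraries. For Hsp90 over the 7 time points the 4 filled points, from 0.0551 to 0.0721, are the ones above 0.05.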

How the data were processed

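Polyadenylated RNA of 27 stranded libraries was measured, per the labels' protocols. The deposited file gives raw counts for each gene, and the submitters' processing notes name Trimmomatic, FastQC, STAR, featureCounts and DESeq2 without versions. Genome build, annotation and strand setting are not given in the sources used here. Coordinates, lengths and sequences are therefore left out. In a RefSeq gene table (Amel_HAv3.1, used for names and neighbours) no gene overlapped any of the 5 chaperone genes.

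The fits were made with edgeR 4.0.16 in R 4.3.3. Filtering by filterByExpr (time point as group) left 9816 of 12319 genes. Libraries were scaled by TMM and fitted with glmQLFit (robust), with colony and time point, or colony and a 24 h cosine and sine, as terms. P-values were adjusted by the Benjamini-Hochberg method over all genes tested and called under 0.05. The peak-to-trough value of a cosine is its full log2 swing. Alternatives used DESeq2 1.42.0 and limma 3.58.1. The fits were also run on simulated counts with known changes, and the shares recovered are not given here. The 13 replicate pairs differed by more than sampling noise (chi-square per degree of freedom from 11.1 to 44.3).

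Members, gene lists and tests were chosen with earlier results of these data known. Similar genes were named by a rule: the 3 highest correlations of all genes and the 2 highest with a symbol. The 8 genes taken by symbol and the pattern of 10:00 were chosen after the table was seen. Correlations within a colony used 100000 permutations (two-sided).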

Additional observations from a re-analysis of the deposited data

Results flagged for a closer look

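Among 30 groups of 4 libraries (5 chaperones at 6 time points), 2 held a library far from the other 3 by Dixon's criterion, which chance meets in about 1 in 20 groups. At 06:00 of day 12, Hsp90 stood at 3343 CPM in the first colony 2 library and between 1854 and 2036 CPM in the other 3. At the same time point, Hsc70-5 stood at 514 CPM in the first colony 1 library and between 483 and 485 CPM in the other 3, a gap that was 0.929 of the whole range but small beside the spread of this gene at other hours.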

How the results depend on the processing

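Of 38 alternatives, Hsp90 kept its call over the 7 time points in 32 and Cdc37 and Hsc70-3 kept their cosine calls in 28 and 17. Of 37, Hsp90 and Cdc37 kept their calls at 10:00 against 22:00 in 29 and 26. The number of chaperones called over the time points, 1 of 5 as reported, was 3 with DESeq2, 3 with limma-voom and library quality weights, 0 with libraries summed per colony and time point, 0 without all libraries of 10:00 (chosen after seeing the data) and 0 to 2 with 1 library left out. For the cosine, 2 as reported, it was 3 with DESeq2, 1 with the replicate block, 0 with summed libraries, 0 in colony 1, 0 in colony 2, 0 without 10:00 and 0 to 3 with 1 library left out. For 10:00 against 22:00, 2 as reported, it was 1 with no filter on low counts, 1 with the block, 0 with summed libraries, 0 without the 3 libraries standing apart, 0 in colony 1, 1 in colony 2 and 0 to 2 with 1 left out. For 14:00 against 02:00, 0 as reported, it was 1 with DESeq2, with quality weights and without the 3 libraries, and 0 to 1 with 1 left out. Between the collections at 06:00 it was 1 in colony 2. Between colonies, 1 as reported, it was 3 with DESeq2, 0 with summed libraries and 1 to 2 with 1 left out. Over all genes, 2449 of 9816 were called there as reported, 2937 with DESeq2, 24 of 10201 with summed libraries and 2044 to 2687 with 1 left out. For time by colony, 0 as reported, it was 1 with DESeq2, limma-voom and quality weights and 0 to 1 with 1 left out. Over all genes, 2209 of 9816 were called there as reported, 3232 with DESeq2, 2262 with limma-voom, 2694 with quality weights and 1332 to 3134 with 1 left out.

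Directions turned only for differences that were not called. Hsc70-5 at 10:00 against 22:00, -0.01 as reported, was 0.0097 with RLE factors, 0.0103 with DESeq2, 0.0588 with quality weights, 0.0485 without the 3 libraries and 0.145 in colony 1, and -0.0635 to 0.0241 with 1 library left out. Hsc70-4 at 18:00 against 06:00 was -0.0906 with quality weights, -0.0022 without the 3 libraries and -0.101 in colony 1. Hsp90 between the collections at 06:00 was -0.0265 with summed libraries, -0.0905 in colony 2 and -0.153 to 0.209 with 1 left out. Without the 3 libraries, Cdc37 was 0.0133 at 18:00 against 06:00 and 0.0017 between the collections at 06:00, and Hsc70-5 was 0.0290 between the latter. In colony 1 Hsc70-5 was 0.0220 between the collections at 06:00 and 0.0357 at 18:00 against 06:00, and over both colonies with 1 library left out the former was -0.109 to 0.0400. In colony 2 Hsc70-4 was -0.0223 at 10:00 against 22:00 and Hsp90 was -0.0285 at 18:00 against 06:00. The cause of these changes was not tested.

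Over all genes, the calls over time ranged from 105 to 569 with 1 library left out, against 225, and were 818 with DESeq2, 1846 with quality weights, 143 with the block and 0 with summed libraries. Cosine calls, 423 as reported, ranged from 178 to 1061 with 1 left out and were 904 with DESeq2, 1203 with quality weights and 874 without the 3 libraries. Calls at 10:00 against 22:00, 212 as reported, ranged from 78 to 535 with 1 left out and were 520 with DESeq2, 993 with quality weights and 70 without the 3 libraries. Calls at 14:00 against 02:00, 9 as reported, ranged from 2 to 235 with 1 left out and were 145, 1066 and 576 under the same settings. The main fits did not pair libraries by replicate number, and the labels do not say whether the numbers pair them. Between time points the replicate differences correlated from -0.07 to 0.24 in colony 1, where 5 of 21 correlations exceeded 0.1. In colony 2 they correlated from -0.17 to 0.16, where 1 of 15 did. Interactions were not run for summed libraries or, for time point by colony, without the 3 libraries or the 1 colony 2 library of 06:00 on day 11. With 1 to 2 libraries per colony and time point, small differences could not be resolved at this replication.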
